A study of Sus scrofa with 48 samples.

Results

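The level of 9 erythroid genes was followed in the whole blood of 48 pigs: AHSP, HBB, SLC4A1, KLF1, EPOR, PLEK2, GATA1, TFRC and TAL1. A spot of the array was taken as a member when its gene name equalled one of these symbols and the spot was in the table that the authors retained. In all 15 spots carried such a name and 14 of them were retained, out of 37113 retained spots with 26924 distinct names. They gave a value for 8 of the 9 genes. No spot was named TAL1, so that this transcription factor of the erythroid lineage is not described. The pigs came from lines of the French Large White breed divergently selected for residual feed intake (RFI), the feed eaten minus the feed predicted from the needs of growth and maintenance, and they were castrated males. Within each line, pigs received a high-fat, high-fiber (HF) or a low-fat, low-fiber (LF) diet of the same energy content, so that the groups were low RFI HF, low RFI LF, high RFI HF and high RFI LF, with 12 pigs each. Blood was taken at exsanguination at 132 days of age, and no group was unselected or received another diet as a common control.

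Red blood cells arise in the bone marrow, where erythropoietin acting on its receptor EPOR, together with the transcription factors GATA1, KLF1 and TAL1, drives progenitors towards hemoglobin production. TFRC, the transferrin receptor, brings in iron during this phase and is lost as reticulocytes mature. HBB is the beta chain of hemoglobin and AHSP is the chaperone of the free alpha chain. Both transcripts are abundant in late precursors and persist in reticulocytes. SLC4A1, or band 3, is the anion exchanger that anchors the skeleton to the red cell membrane. PLEK2, pleckstrin 2, acts on the actin cytoskeleton and is a target of erythropoietin signaling in erythroblasts. AHSP and HBB were therefore kept apart below from the precursor genes KLF1, EPOR, PLEK2, GATA1 and TFRC.

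Each pig had 1 array with a single dye. The 6 slides held 8 arrays, 2 from each group, and were scanned on 3 days. The scanner software called 40771 to 46727 non-control spots well above background per array, and per array the median signal was 5.91 to 16.0 times the median local background. Values are log2 intensities with the median of the array at 0, and a gene with several spots has their mean. The deposited column of 1 high RFI HF pig repeated a single value and was rebuilt from its scanner file. Of the blood cell markers, 1 of 8 neutrophil, 1 of 7 monocyte, 3 of 6 B cell, 1 of 6 T cell and 1 of 3 eosinophil, basophil and mast cell genes passed the criterion given below for line, against 5.56% of all names. The neutrophil gene CXCR2 (P = 0.0011), the monocyte gene CD14 (P = 0.00103) and the B cell genes MS4A1 (P = 7.01e-06) and FCRL1 (P = 0.0023) were underexpressed in low RFI pigs, while the eosinophil receptor CCR3 (P = 0.000334) and the T cell kinase LCK (P = 0.000987) were overexpressed (limma, unadjusted). The markers were measured for 8 of 11 neutrophil, 3 of 9 eosinophil, basophil and mast cell, 6 of 8 B cell, 6 of 8 T cell, 5 of 7 NK cell, 7 of 8 monocyte and 6 of 12 platelet and megakaryocyte genes. The direction was lower in low RFI pigs for 5 of 8 neutrophil, 5 of 7 monocyte and 6 of 6 B cell genes and higher for 2 of 3 eosinophil, basophil and mast cell and 6 of 6 T cell genes. For diet, 6 of 8 neutrophil genes had positive differences, with a median of 0.24, and LTF, the lactoferrin gene, had 0.70 (P = 0.030). No NK cell or platelet marker passed for line, and no marker passed the criterion for diet or for the interaction. From the array values of bulk blood alone, fewer cells of a type and less RNA per cell cannot be told apart. The study's blood cell counts were not used here.

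The oligos behind the main results are shown first, because for SLC4A1 the choice of oligo decides the result. Each is 60 bases long as the scanner files give it. The oligos of spots 6255 (SLC4A1) and 57633 (EPOR) are shown whole since their reading frame is that of the named protein as far as general knowledge of these proteins goes. Of the others, which may lie in untranslated regions, 30 bases are shown. Capitals mark AATAAA, the canonical polyadenylation hexamer.
SLC4A1 spot 6255: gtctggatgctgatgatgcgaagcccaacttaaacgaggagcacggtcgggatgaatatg
SLC4A1 spot 35653, bases 12 to 41: ctccatggttgaAATAAAatggggtgagag
KLF1 spot 37722, bases 1 to 30: tgaatggttatgggtcctgtaaaaatgccc
KLF1 spot 50389, bases 1 to 30: tccacacagggtggttttccctcagatgaa
EPOR spot 44553, bases 1 to 30: ggactaaggacattgctgaccttgactttc
EPOR spot 57633: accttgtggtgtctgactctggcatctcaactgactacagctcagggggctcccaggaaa
PLEK2 spot 331, bases 28 to 57: gttgtaaaactaAATAAAacactatcgtct
HBB spot 26415, bases 1 to 30: ctttaaaacagaaaagacttacatttgctt
AHSP spots 11135 and 55619, bases 1 to 30: tgtctaagaaacccttaaatgccgcttctg
GATA1 spot 14499, bases 1 to 30: tcagccgctctgtctttaaggtctccagga

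The hexamer was found in the oligos of SLC4A1 spot 35653 and PLEK2 spot 331 as printed and in no other member oligo, on either strand. Over all retained oligos it was found in 12.0% as printed and in 4.34% on the opposite strand. The 2 AHSP spots carry identical bases and are a repeat measure of 1 oligo. The oligo named GATA1 calls for caution. From general knowledge of the protein, the strand opposite to the printed one reads as GATA1 coding sequence, whereas arrays of this kind carry the strand of the mRNA. Its value is given below as that of the spot named GATA1. A further 5 retained spots, not chosen by name, share at least 54 bases with a member oligo and are listed under other names: spot 1996 has the 60 bases of SLC4A1 spot 6255, spot 54149 those of KLF1 spot 50389, spot 22564 those of EPOR spot 44553 and spot 51822 those of TFRC spot 34561, while spot 32824 shares 54 bases with KLF1 spot 37722. They were used as repeat measures.

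**Figure D1:**
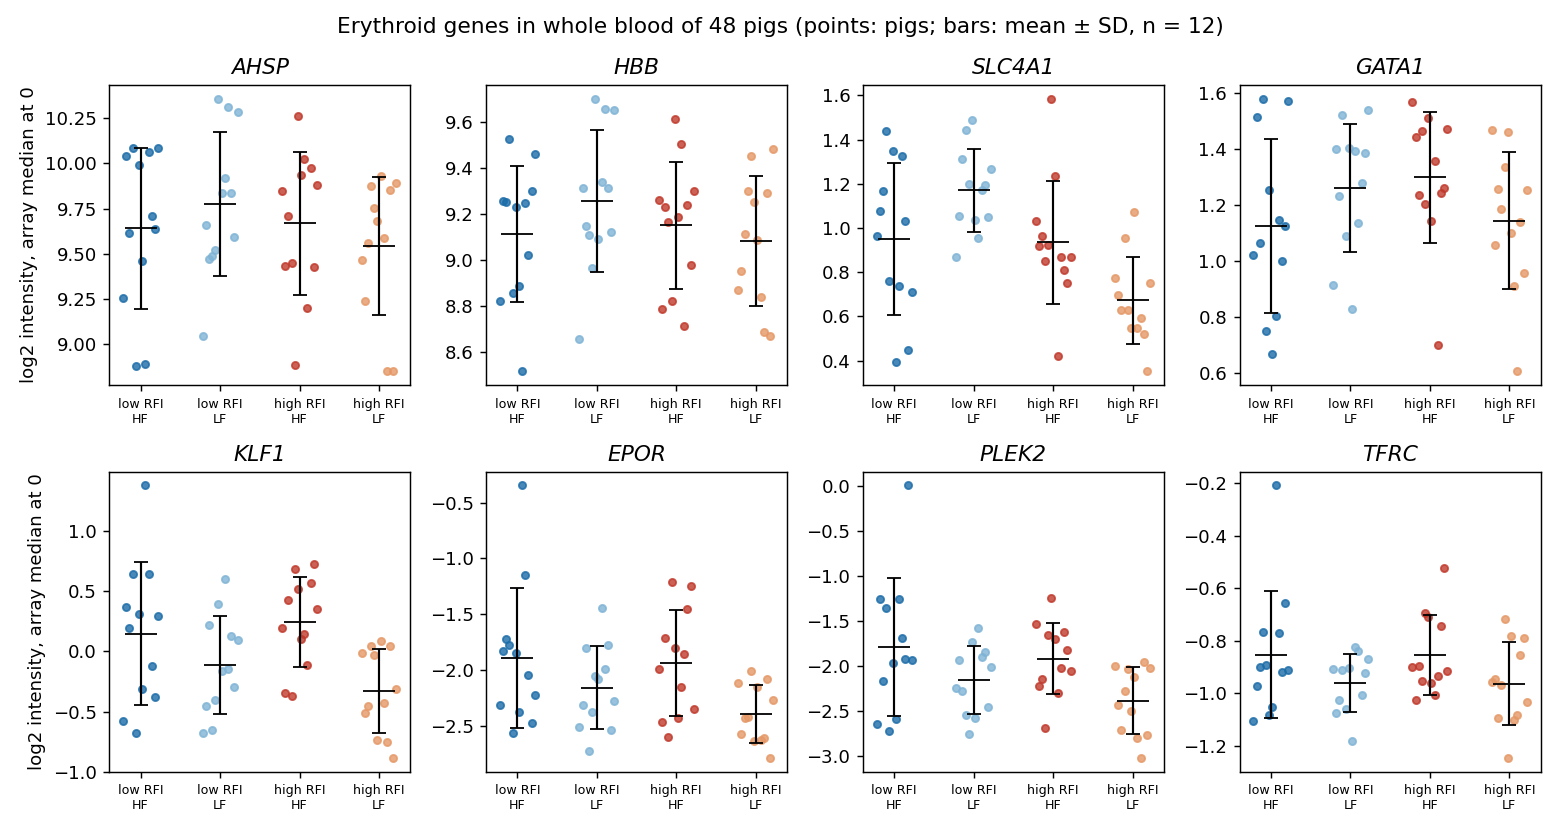
Level of each erythroid gene in the blood of 48 pigs (y axis, log2 intensity with the array median at 0) by line and diet (x axis); points are pigs and bars are the mean ± SD of 12 pigs. The groups overlap for every gene. SLC4A1 is lowest in high RFI LF pigs, and KLF1, EPOR and PLEK2 have higher means in HF pigs of both lines.

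SLC4A1 was the member that differed between the lines. Its value was 1.06 ± 0.29 (SD, n = 24) in low RFI pigs and 0.80 ± 0.27 in high RFI pigs on the log2 scale, an FC of 1.19 (log2 difference 0.26 ± 0.07 SE; limma P = 0.0012, adjusted P = 0.047 over all names), and 19 of 24 low RFI pigs lay above the high RFI median. No other member passed for line, either at an adjusted P-value under 0.05, which 2.73% of all names reached, or at the criterion of the study's methods, an unadjusted P-value under 0.01 with an FC above 1.1, which 5.56% reached. Of all names 2.61% passed that criterion with higher levels in low RFI pigs, and SLC4A1 was 1 of 8 members to do so. The adjusted P-value is close to the threshold, and it was 0.068 without high RFI HF replicate 11 and 0.057 without high RFI HF replicate 5. The adjusted call was also lost with all non-control spots, with analysis of variance without moderation and in other settings given at the end.

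The SLC4A1 difference between lines was found in LF pigs. In low RFI LF pigs the values ran from 0.87 over a median of 1.18 to 1.49, and in high RFI LF pigs from 0.35 over 0.63 to 1.07. The groups overlap between 0.87 and 1.07, and 12 of 12 low RFI LF pigs lay above the median of high RFI LF pigs. The FC was 1.41 (log2 difference 0.50 ± 0.11 SE, limma adjusted P = 0.010), at a background of 0.457% of names for this contrast. On the HF diet the values ran from 0.40 over 0.997 to 1.44 in low RFI pigs and from 0.42 over 0.89 to 1.59 in high RFI pigs, and the log2 difference between lines was 0.01 ± 0.11 (SE; limma P = 0.89). The interaction tests the difference itself, and it was -0.48 ± 0.15 (SE; limma P = 0.0022, adjusted P = 0.89). SLC4A1 was lower on HF than on LF in low RFI pigs by a log2 difference of -0.22 ± 0.11 (P = 0.043) and higher on HF in high RFI pigs by 0.26 ± 0.11 (P = 0.016), both unadjusted limma values. The interaction of the mean value was negative on 6 of 6 slides, from -0.95 to -0.18 (on 5 of 6 at spot 1996, described below, from -2.44 to 0.39), and the line difference in LF pigs was positive on 6 of 6 slides, from 0.19 to 0.75.

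The 2 spots named SLC4A1 differed in what they showed. Spot 6255 had an FC of 1.51 between lines (log2 difference 0.59 ± 0.17 SE, limma adjusted P = 0.047 over all spots, a level that 2.77% of spots reached, with 5.78% past the criterion) and an interaction of -0.94 ± 0.35 (SE; P = 0.0094), while spot 35653 had a line difference of -0.08 ± 0.10 (P = 0.43) and an interaction of -0.03 ± 0.20 (P = 0.88). Spot 1996, with the same bases as spot 6255 but another name, had a line difference of 0.62 ± 0.18 (adjusted P = 0.036) and an interaction of -0.93 ± 0.35 (P = 0.011). At spot 6255 the log2 values of low RFI LF pigs ran from -1.34 over -0.38 to 0.60 and those of high RFI LF pigs from -2.83 over -1.45 to -0.22, an FC of 2.09 (limma adjusted P = 0.022). At spot 35653 they ran from 2.37 over 2.64 to 3.08 and from 2.36 over 2.70 to 3.54. Both spots were well above background on 48 of 48 arrays, with a median intensity of 190 at spot 6255 and 2350 at spot 35653. After removal of the group means, the values of spots 6255 and 35653 had r = -0.55 over 48 pigs, whereas spots 6255 and 1996 had r = 0.97. As a description, spot 6255 went with AHSP spot 11135 (r = 0.69) and spot 35653 went against it (r = -0.54). The results for SLC4A1 therefore rest on the oligo of spots 6255 and 1996. Averaging spot 6255 with the opposed spot 35653 gave a narrower spread than spot 6255 had alone. The SD was 0.19 against 0.45 in low RFI LF pigs and 0.20 against 0.66 in high RFI LF pigs. The limma P-values of the mean were smaller for the interaction (0.0022 against 0.0094) and for line in LF pigs (2.1e-05 against 7.4e-05), and near equal for line. The FCs of the mean are those of neither oligo. Taking the brighter spot alone gave a line difference of -0.08 and ended all calls for this gene.

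**Figure D2:**
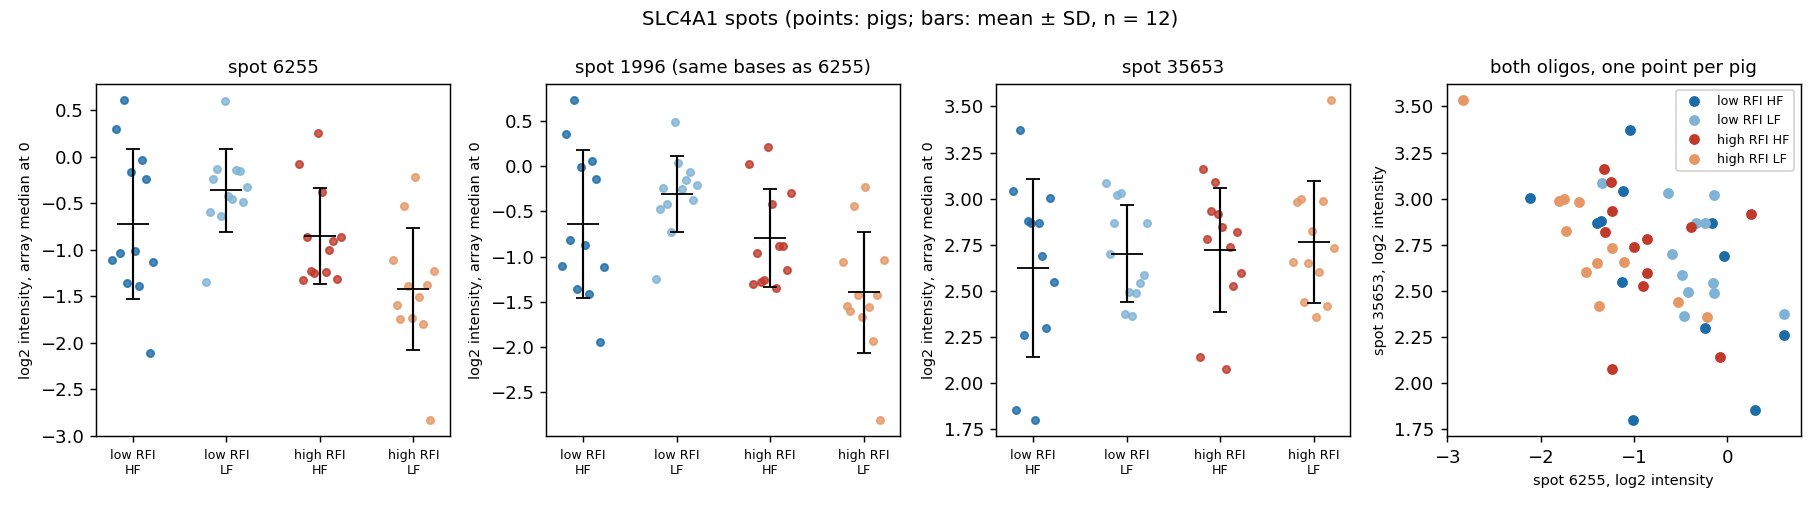
Log2 intensity (array median at 0) of the 2 spots named SLC4A1 and of spot 1996 by line and diet, with points for pigs and bars for the mean ± SD of 12 pigs, and, on the right, spot 35653 (y axis) against spot 6255 (x axis). Spots 6255 and 1996 are lowest in high RFI LF pigs, spot 35653 has similar means in the 4 groups, and the values of both oligos run in opposite directions over pigs.

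KLF1, EPOR and PLEK2 were the members with higher levels on the HF diet. They are 3 of 8 members at the criterion of the methods, which 0.208% of all names passed for diet. This count is no independent evidence, since the same 3 genes stand in the study's own list of genes responding to diet on these samples. No name passed an adjusted P-value under 0.05 for diet (limma, 0 of 26924, with 433 or 1.61% at an unadjusted P-value under 0.05, and 0 and 452 by analysis of variance without moderation; over spots 1.64% had such an unadjusted P-value). The adjusted P-value of each of the 3 was 1.

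KLF1, the erythroid Krüppel-like factor that activates the adult beta globin gene, ran from -0.68 over a median of 0.25 to 1.38 in low RFI HF pigs and from -0.68 over -0.15 to 0.61 in low RFI LF pigs. In high RFI pigs it ran from -0.37 over 0.28 to 0.73 on HF and from -0.89 over -0.37 to 0.09 on LF. The HF and LF pigs overlap in both lines, with 18 of 24 HF pigs above the LF median. The FC between diets was 1.33 (log2 difference 0.42 ± 0.12 SE, limma P = 0.0016), and the difference was positive on 6 of 6 slides, from 0.30 to 0.60. Spots 37722 and 50389 gave FCs of 1.25 (P = 0.0050) and 1.42 (P = 0.0015). Their repeat measures, spots 32824 and 54149, gave 1.24 (P = 0.016) and 1.39 (P = 0.0022). Both KLF1 oligos thus gave the same direction, with r = 0.81 between them over 48 pigs.

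EPOR, the erythropoietin receptor, ran from -2.56 over a median of -1.94 to -0.35 in low RFI HF pigs and from -2.72 over -2.18 to -1.44 in low RFI LF pigs. It ran from -2.60 over -1.92 to -1.21 in high RFI HF pigs and from -2.78 over -2.42 to -2.001 in high RFI LF pigs. The groups overlap, and 16 of 24 HF pigs lay above the LF median. The FC was 1.28 (log2 difference 0.36 ± 0.13 SE, limma P = 0.0069), and it was positive on 6 of 6 slides. With the local background subtracted it was 0.49 (P = 0.016), short of the criterion. Spot 44553 gave an FC of 1.42 (P = 0.0078), its repeat spot 22564 gave 1.46 (P = 0.0039), and spot 57633 gave 1.16 (P = 0.011). EPOR was dim, at a median intensity of 2.10 and 2.60 times the local background at its 2 spots. Low RFI HF replicate 8 was the highest pig for EPOR and for KLF1, and without it the EPOR difference was 0.29 (P = 0.012), short of the criterion, while KLF1 kept it (0.36, P = 0.0030).

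PLEK2 ran from -2.72 over -1.93 to 0.00 in low RFI HF pigs and from -2.76 over -2.13 to -1.58 in low RFI LF pigs. It ran from -2.69 over -1.93 to -1.25 in high RFI HF pigs and from -3.03 over -2.36 to -1.96 in high RFI LF pigs. A single pig, low RFI HF replicate 11, stood above all others. The FC was 1.33 (log2 difference 0.42 ± 0.14 SE, limma P = 0.0050), 19 of 24 HF pigs lay above the LF median, and the difference was positive on 6 of 6 slides. Without that pig it was 0.33 (P = 0.0078). PLEK2 has 1 spot, which was well above background on 47 of 48 arrays.

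TFRC and the spot named GATA1 did not pass the criterion for diet. TFRC differed by 0.11 ± 0.05 (SE; limma P = 0.041) on the log2 scale, with 16 of 24 HF pigs above the LF median, and its values lay between -1.25 and -0.21. Its 3 spots gave diet differences of 0.19, 0.07 and 0.07, and their correlation over pigs was only 0.15 to 0.31. The 2 dimmer TFRC spots had 2.14 and 1.95 times the local background. Spot 51822, with the bases of spot 34561, had r = 0.11 with it and reached 2.71 in 1 high RFI LF pig against a group median of -2.58. The spot named GATA1 lay between 0.61 and 1.58, with a diet difference of 0.01 ± 0.07 (P = 0.90), a line difference of -0.03 ± 0.07 (P = 0.70) and an interaction of -0.29 ± 0.15 (P = 0.054). TFRC had a line difference of 0.00 ± 0.05 (P = 0.96).

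**Figure D3:**
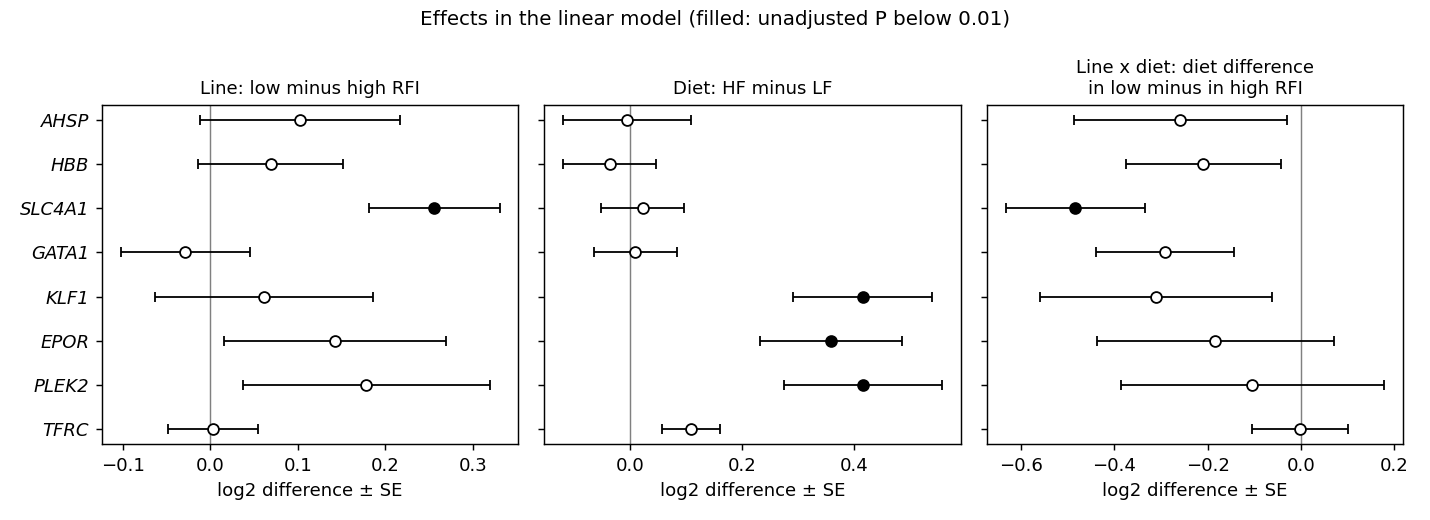
Log2 differences ± SE (x axis) of the 8 members (y axis) for line, diet and their interaction in the linear model; filled points have an unadjusted P-value under 0.01. SLC4A1 is filled for line and interaction, and KLF1, EPOR and PLEK2 for diet.

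AHSP and HBB, the abundant transcripts of late precursors and reticulocytes, were not distinguishable between groups. AHSP ran from 8.88 over a median of 9.67 to 10.09 in low RFI HF, from 9.04 over 9.75 to 10.36 in low RFI LF, from 8.89 over 9.78 to 10.26 in high RFI HF and from 8.85 over 9.63 to 9.93 in high RFI LF pigs. The 4 groups overlap over most of their range. HBB ran from 8.52 over 9.24 to 9.53, from 8.66 over 9.23 to 9.70, from 8.72 over 9.21 to 9.61 and from 8.67 over 9.10 to 9.48 in the same groups. The line differences were 0.10 ± 0.11 (SE; limma P = 0.37) for AHSP and 0.07 ± 0.08 (P = 0.41) for HBB, and the diet differences were -0.01 ± 0.11 (P = 0.96) and -0.04 ± 0.08 (P = 0.66). The interactions were -0.26 ± 0.23 (P = 0.26) and -0.21 ± 0.17 (P = 0.21). No saturated spot was found, although the median intensity was 300707 and 309099 at the AHSP spots and 209102 at the HBB spot. The 2 AHSP spots had r = 0.99 with each other, with an SD of their difference of 0.06 on the log2 scale.

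For the interaction, SLC4A1 was 1 of 8 members at P < 0.01, against 0.223% of all names, and no name had an adjusted P-value under 0.05 (limma, 0 of 26924, with 606 or 2.25% at an unadjusted P-value under 0.05, and 0 and 627 by analysis of variance without moderation). Over spots, 2.28% had such an unadjusted P-value, and 0.078% of names were negative at P < 0.01. The interaction of KLF1 was -0.31 ± 0.25 (P = 0.22), that of EPOR -0.18 ± 0.25 (P = 0.47), that of PLEK2 -0.10 ± 0.28 (P = 0.72) and that of TFRC -0.0016 ± 0.10 (P = 0.99). In high RFI pigs the diet difference was 0.57 ± 0.18 (P = 0.0022) for KLF1, 0.45 ± 0.18 (P = 0.016) for EPOR and 0.47 ± 0.20 (P = 0.024) for PLEK2. In low RFI pigs it was 0.26 ± 0.18 (P = 0.15), 0.27 ± 0.18 (P = 0.14) and 0.36 ± 0.20 (P = 0.075). The interactions above do not show that these diet differences differed between lines.

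Over pigs, AHSP went with HBB, and KLF1 with EPOR. Deviations from the group means were compared for the 28 pairs of members, with a permutation test of 100000 resamples, 2-sided, and 18 pairs had an adjusted P-value under 0.05, all of them positive. AHSP and HBB went together with r = 0.89 and rho = 0.88 (permutation adjusted P = 7e-05, the smallest the resamples gave), and r was 0.90 without the 2 pigs farthest from the AHSP median. The spot named GATA1 had r = 0.65 with HBB (rho = 0.63) and r = 0.58 with AHSP (rho = 0.54). KLF1 and EPOR went together with r = 0.87 and rho = 0.86 (permutation adjusted P = 7e-05), and r was 0.83 without the 2 farthest pigs. Within single slides this r was 0.73 to 0.97 for KLF1 and EPOR and 0.89 to 0.97 for AHSP and HBB. TFRC had r = 0.61 with EPOR (rho = 0.47), r = 0.58 with KLF1 (rho = 0.51) and r = 0.54 with PLEK2 (rho = 0.58), and these were 0.45, 0.47 and 0.56 without the 2 farthest pigs. PLEK2 had r = 0.52 with KLF1 (rho = 0.65), r = 0.43 with EPOR (rho = 0.58), r = 0.42 with HBB (rho = 0.49) and r = 0.41 with AHSP (rho = 0.46). EPOR had r = 0.08 with AHSP (rho = 0.25, permutation adjusted P = 0.70) and r = 0.03 with HBB (rho = 0.21, permutation adjusted P = 0.94), and TFRC had r = -0.10 and -0.03. KLF1 had r = 0.39 with AHSP and r = 0.32 with HBB (adjusted P = 0.012 and 0.042). Without the 2 pigs farthest from the HBB median, r with HBB was 0.21 for EPOR, 0.23 for TFRC and 0.49 for KLF1. Within single slides r with AHSP ran from -0.63 to 0.66 for EPOR and from -0.50 to 0.76 for KLF1. For TFRC and KLF1 these values depend on the spot. With AHSP spot 11135, TFRC spots 1634, 19353 and 34561 had r = -0.31, 0.35 and -0.07. With HBB they had r = -0.20, 0.29 and -0.02. KLF1 spots 37722 and 50389 had r = 0.57 and 0.23 with AHSP spot 11135. The differences between these correlations were not tested.

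**Figure D4:**
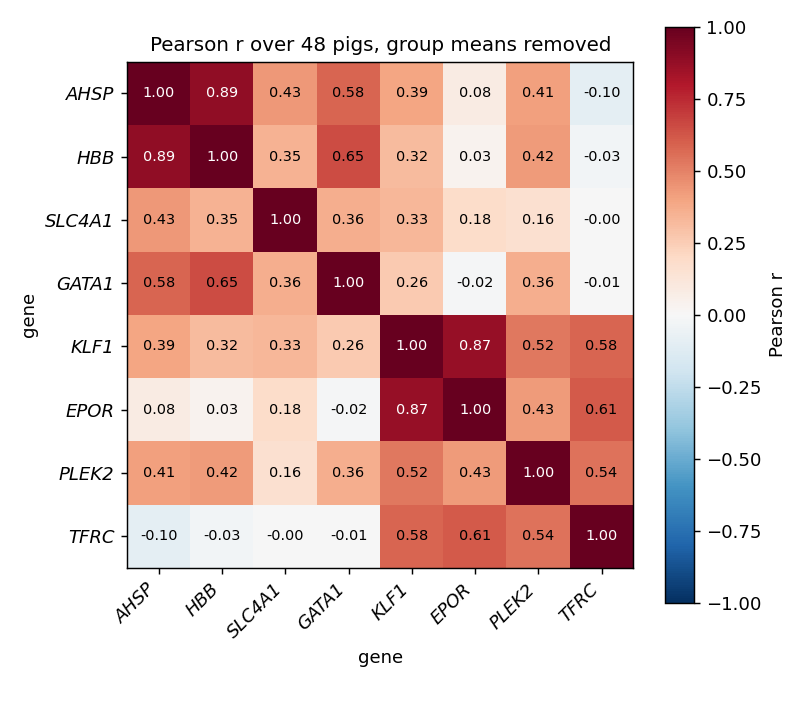
Pearson r between the 8 members over 48 pigs after removal of the 4 group means, printed in each cell (colour scale from -1 to 1). AHSP with HBB and KLF1 with EPOR are the highest pairs, while EPOR and TFRC are near 0 with AHSP and HBB. The TFRC value is a mean of spots that differed in the sign of r with AHSP and HBB.

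Several members went with measures of the whole array. The first component over all names, which held 42.5% of the variance after removal of the group means, had r = 0.86 with AHSP, r = 0.69 with HBB, r = 0.53 with KLF1 (permutation adjusted P = 0.00072), r = 0.52 with the spot named GATA1 and r = 0.43 with PLEK2. The number of names with r of 0.5 or more was 7431 for AHSP, 5628 for HBB, 2521 for the spot named GATA1 and 1703 for KLF1. The log2 median intensity of the array, which was set to 0 in each column, had r = -0.71 and rho = -0.76 with AHSP (permutation adjusted P = 6e-05 over 24 relations) and r = -0.61 and rho = -0.64 with HBB (adjusted P = 6e-05), and r = -0.45 with PLEK2 (permutation adjusted P = 0.00315). For EPOR the same r was -0.06 (adjusted P = 0.77) and for TFRC 0.05 (adjusted P = 0.78), and 149 and 85 names had r of 0.5 or more with them. The array median is subtracted from every log2 value, so it enters both sides of its relations with opposite sign. A negative r can come from that subtraction alone, and the P-values of this measure are no test of a relation. The part of array intensity in the values of these members was not tested.

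The genes nearest to each member over pigs are given as a description. For AHSP they were HABP2 (r = 0.95), the mitochondrial carrier SLC25A39 (0.95) and RHBDD3 (0.95), and for HBB they were NRTN (0.91), HABP2 (0.89) and the ribosomal protein gene RPL37 (0.885). For KLF1 they were ANK1 (0.90), the ankyrin that links band 3 to spectrin, the collagen chaperone SERPINH1 (0.84) and PGLYRP1 (0.81), a granule protein of neutrophils. For EPOR they were PRTN3 (0.90), a protease of early granulocytes, the matrix proteoglycan BGN (0.89) and the marrow chemokine CXCL12 (0.86). For TFRC they were the fatty acid binding protein FABP4 (0.70), PHACTR3 (0.66) and BGN (0.66), and for PLEK2 MYOC (0.68), the erythroid TRIM10 (0.66) and TUBGCP2 (0.66). For the spot named GATA1 they were BOK (0.91), EI24 (0.82) and SREBF1 (0.81), and for SLC4A1 CLIC2 (0.64), RANBP10 (0.63) and NUP50 (0.62). The SLC4A1 value here and in the correlations above is the mean of 2 oligos that went against each other, and which of them measures SLC4A1 mRNA was not settled. The median r over all names lay near 0, between -0.05 and 0.01.

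Among these neighbours of EPOR, KLF1 and TFRC were genes known from marrow stroma, connective tissue and fat. A list of 24 such genes was then written, of which 23 were measured, among them the collagens COL1A1 and COL1A2, SPARC, BGN, CXCL12 and FABP4. Since the list was written with these neighbours in view and holds BGN, CXCL12 and FABP4, its correlations below describe the pigs and are no test of the pattern. The mean level of the list ran from -1.81 over -1.37 to -0.76 in low RFI HF, from -1.87 over -1.48 to -0.93 in low RFI LF, from -1.59 over -1.24 to -0.96 in high RFI HF and from -1.90 over -1.60 to -1.23 in high RFI LF pigs. Its r with KLF1 was 0.89 and with EPOR 0.86 over 48 pigs, and these were 0.86 and 0.84 without the 2 farthest pigs. With PLEK2 it was 0.58, with TFRC 0.56, with AHSP 0.42, with SLC4A1 and HBB 0.32 and with GATA1 0.20. Without the 2 farthest pigs these were 0.55 for PLEK2, 0.46 for TFRC, 0.58 for AHSP, 0.45 for SLC4A1, 0.49 for HBB and 0.28 for GATA1. For diet, 21 of the 23 genes had positive differences, with a median of 0.09 against 0.01 over all names, and 2 passed the criterion, which 0.208% of all names did: COL1A1 with a difference of 0.71 (P = 0.0097) and BGN with 0.61 (P = 0.0067), the latter also in the study's diet list. For line, 2 passed, against 5.56% of all names, a share near the background: BGLAP, the osteocalcin gene, with 0.15 (P = 0.0083) and PLIN1, the perilipin of fat droplets, with -0.19 (limma adjusted P = 0.027). Of 5 early granulocyte genes 2 were measured, PRTN3 and ELANE, and their mean level had r = 0.77 with EPOR and r = 0.74 with KLF1. PRTN3 is the nearest neighbour of EPOR given above, so these values too are a description and no test. The mean of the 8 neutrophil markers had r = 0.57 with EPOR and r = 0.45 with KLF1. That of the 6 T cell markers had r = -0.61 with AHSP and r = -0.53 with KLF1, and that of the 15 late erythroid genes had r = 0.83 with AHSP and r = 0.72 with KLF1. Without the 3 pigs highest in the list mean, the low RFI HF replicates 8 and 9 and low RFI LF replicate 8, the same 3 members still passed the criterion for diet. The part of these genes and markers in the diet differences of KLF1, EPOR and PLEK2 was not tested.

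**Figure D5:**
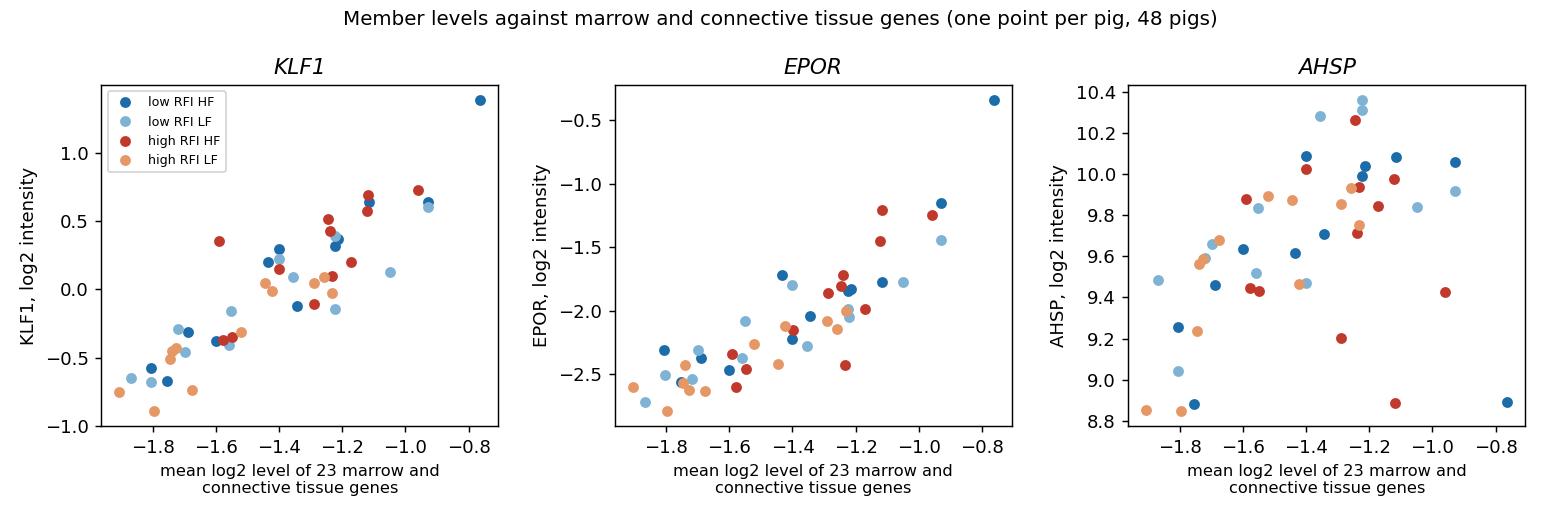
Levels of KLF1, EPOR and AHSP (y axes, log2 intensity with the array median at 0) against the mean log2 level of 23 marrow and connective tissue genes (x axis) in 48 pigs, coloured by line and diet. KLF1 and EPOR are higher where the list mean is higher in all groups, with low RFI HF replicate 8 at the top of both, while AHSP is more scattered.

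Among the other genes of the erythroid programme, changes were few. Of 27 further genes of the red cell membrane and skeleton 10 were measured, and 1 passed the criterion for line, against 5.56% of all names: DARC, the red cell chemokine receptor that carries the Duffy antigen, with a difference of 0.30 ± 0.10 (SE; limma P = 0.0027, adjusted P = 0.077). None of the 10 passed for diet or interaction, with medians of 0.16 and -0.27 against 0.01 and 0.00 over all names, and ANK1 had a diet difference of 0.30 (P = 0.030). Of 23 further regulators 18 were measured, and 1 passed for line: SOX6, a repressor of embryonic globin, with 0.45 ± 0.17 (P = 0.0090, adjusted P = 0.16). This share is that of the background. None passed for diet or interaction, with medians of 0.01 and -0.09.

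Of 21 late erythroid enzymes and clearance genes 15 were measured, among them ALAS2, which starts heme synthesis, the carbonic anhydrases CA1 and CA2 and the mitochondrial iron carrier SLC25A37. None passed for line, diet or interaction, with medians of 0.13, 0.09 and -0.41 against 0.02, 0.01 and 0.00 over all names. The interaction was negative for 12 of the 15, for example -0.41 for ALAS2 (P = 0.17) and -0.47 for SLC25A37 (P = 0.10). It was also negative for 8 of 8 measured neutrophil genes, with a median of -0.51, and for 8 of 8 members, although under other processing it was positive for TFRC (0.09 with the brightest spot) and PLEK2 (0.02 with normexp and quantile), and for AHSP and HBB with the damaged column (0.34 each). The members correlated with each other, so such counts of signs are not independent, and the TFRC interaction was only -0.0016 ± 0.10. The sign was also negative for 19 of 23 marrow and connective tissue genes and 15 of 18 further regulators, and positive for 5 of 6 T cell genes. None of the 11 measured proliferation genes or the 6 measured iron supply genes passed for any of the 3 effects. Of 12 other globin names 1 was measured, the embryonic HBE1, with a line difference of -0.23 (P = 0.30), a diet difference of 0.30 (P = 0.18) and an interaction of -0.78 (P = 0.075).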

How the data were processed

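Members and gene lists were chosen with earlier results of these data known. Quality calls were deposited as 0 or 1. Per the file headers, the authors scanned the arrays with Agilent Feature Extraction 10.7.3.1, which wrote a median pixel intensity, a local background and quality calls per spot. The authors filtered spots on background, diameter, saturation and uniformity, and deposited log2 intensities centred on the median of each array, made in R 3.0.2. Local background was not subtracted, which lowers log2 differences of dim spots (the EPOR diet difference was 0.49 with subtraction, at P = 0.016). For 1 pig, 37088 of the 37113 deposited values differed from those recomputed from the scanner file by more than 0.000001, and the recomputed values were used.

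Spots with the same upper-case name were averaged. Line, diet and interaction were contrasts of 4 group means, fitted over all 26924 names or 37113 spots with limma 3.58.1 in R 4.3.3, and P-values were adjusted by the Benjamini-Hochberg (BH) procedure over all of them. The procedure was tested on simulated data. All members are named, together with genes of the lists at P < 0.01 (at most 4 per list and effect) and the 3 gene symbols nearest to each member. Correlations used scipy 1.17.1 and numpy 2.4.6, and tables and plots used pandas 2.3.3 and matplotlib 3.10.9, under Python 3.11.15. The number of pigs and arrays limits the precision. The genome build behind the oligos is not given in the sources used here. Alternatives covered background correction, scaling, spot filters, blocks, priors, the brightest spot, the deposited column and pigs left out. The result of 1 list gene that passed the rule for naming is not reported here.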

Additional observations from a re-analysis of the deposited data

Results flagged for a closer look

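The line by diet interaction of SLC4A1 was -0.48 (limma P = 0.0022), and that of its spot 6255 was -0.94 (limma P = 0.0094). These were listed because the diet difference differed between the lines at an unadjusted P-value under 0.01, while the adjusted P-values were 0.89 and 0.90. Another KLF1 spot, number 2297, was left out of the deposited table and entered the KLF1 value only in the alternative with all non-control spots, where the KLF1 diet effect was 0.31. Its intensity was above the 95th percentile of the negative controls on 39 of 48 arrays, and it was well above background on 6 of 48. The mean of its log2 values was higher by 0.18 in HF than in LF pigs, with 16 of 24 HF pigs above the LF median, and it had r = 0.50 with the KLF1 value over 48 pigs.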

How the results depend on the processing

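Each member's line, diet and interaction effect and the SLC4A1 line effect in LF pigs were recomputed under 17 settings, of which 5 that leave out pigs were chosen after seeing the data. Of 422 values, 380 kept direction and call, 12 lost the call and 30 changed sign, among which the SLC4A1 line effects with the brightest spot had been called. PLEK2 has no value where spots had to be well above background on every array.

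With the brightest spot the SLC4A1 line effect was -0.081, its diet effect -0.061 and its line effect in LF pigs -0.065, and 0 members passed for line or interaction. With the column as deposited, 0 members passed for line and 1 for diet. With spots well above background on every array, 1 member passed for diet. After adjustment, 0 members passed for line with all non-control spots, analysis of variance without moderation, or without the 3 pigs highest in marrow and connective tissue genes, and with 4 pigs left out in turn the count ran from 0 to 1. The EPOR diet effect ranged from 0.21 to 0.55 (P = 0.0040 to 0.018) KLF1 from 0.31 to 0.52 (P = 0.00099 to 0.0051) and PLEK2 from 0.29 to 0.63 (P = 0.0046 to 0.015, the highest with the deposited column). Both background-corrected settings, normexp and quantile, and the brightest spot left 2 members for diet, KLF1 and PLEK2, with EPOR at P = 0.016, 0.017, 0.016 and 0.011. So did leaving out low RFI HF replicate 8, high RFI HF replicate 5 or high RFI HF replicate 11.

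The other sign changes were of effects that had not been called. TFRC line effects were -0.017 (normexp and quantile), -0.068 (well above background and brightest spot alike), -0.15 (deposited column) and -0.040 (without the 3 pigs), and its interactions 0.017 (normexp and quantile), 0.044 (all non-control spots) and 0.093 (well above background and brightest spot alike). With pigs left out in turn, the TFRC line effect ran from -0.026 to 0.018, its interaction from -0.060 to 0.029 and the AHSP diet effect from -0.0050 to 0.030. Others were PLEK2 interaction 0.021 (normexp and quantile), SLC4A1 and GATA1 diet -0.0024 and -0.015 (all non-control spots), GATA1 diet -0.0028 (without the rebuilt pig), KLF1 and EPOR line -0.043 and -0.053 and AHSP and HBB interaction 0.34 and 0.34 (deposited column, against -0.26 and -0.21), and KLF1 and EPOR line -0.058 and -0.0036 and AHSP diet 0.018 (without the 3 pigs). The causes were not tested.

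With the replicate block, 1 member passed for line and for interaction and 3 for diet, and no call changed (SLC4A1 line effect 0.26, adjusted P = 0.016), while the GATA1 interaction went from P = 0.054 to 0.020. Pigs sharing a number had correlated deviations above 0.1 in 43 of 72 pairs, and 22 of 48 pigs correlated best with a pig of their own number, a hint from the data. Pigs with the same number were also on the same slide. The labels give no meaning to the numbers and not every pair was above 0.1, so the pigs were not treated as paired. Under the 6 settings that change values, apart from the deposited column, r was 0.79 to 0.92 for AHSP and HBB and 0.68 to 0.86 for KLF1 and EPOR. Signal over background limits the dim spots of EPOR, PLEK2 and TFRC.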
